A study of Saccharomyces cerevisiae with 16 samples.

Results

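TEF1 and TEF2 are the paired yeast genes for translation elongation factor EF-1 alpha, and they were followed here through all 16 libraries of a transcriptome-wide search for pseudouridines. The 2 genes were taken as fixed windows of 1601 nt, on chromosome 16 for TEF1 and on chromosome 2 for TEF2, within which 1545 and 1558 positions are listed among the 5704895 positions of the whole table. In the method, called PSI-seq, poly(A) RNA was treated with the carbodiimide CMC, which leaves a lasting adduct on pseudouridine, and reads were counted where reverse transcription stopped. Every RNA was divided into a CMC-treated (+CMC) and a mock-treated (-CMC) library. Natural RNA came from strain BY4741, and IVT RNA was transcribed in vitro from amplified copies of yeast transcripts, so that it held no modified bases. The growth conditions were heat shock (30 min at 45 °C), stationary phase (OD260 of 4) and log phase (OD260 of 0.8). Log phase was sampled from 2 cultures, of which 1 was then heat shocked (pre-heat-shock log phase) and the other was taken on to stationary phase (pre-stationary log phase). Each of the 4 experiments has 1 library per RNA and treatment, so values of heat shock and of stationary phase have no replicate error, and the pair of log-phase libraries gives the only spread within a condition. Libraries held 3925245 to 25759455 reads as listed, of which the TEF1 window took 6484 to 262255.

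EF-1 alpha carries aminoacyl-tRNA to the ribosome as a complex with GTP, and it is among the most abundant proteins of a growing yeast cell. TEF1 and TEF2 encode the same protein, and short reads from most of either mRNA match both genes. Pseudouridine is made from uridine by pseudouridine synthases. It is best known from tRNA and rRNA, and yeast Pus4 makes it in the T loop of tRNAs.

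The study listed 1 position in the coding sequence of these genes as a candidate pseudouridine, and distances below are counted from it, with negative values on the 5′ side. It was chosen in the study from the natural and IVT reads of log phase and heat shock, so its values in those experiments are a description. Stationary phase was not used for that choice. The sequence that the study built into its test RNAs is shown because every value at the site and beside it is read against it. The capitals mark the GTTCGA hexamer kept in the shortest of those RNAs, its second T is the listed site, and the hexamer has the form of the T loop of tRNAs.
TEF1 around the listed site: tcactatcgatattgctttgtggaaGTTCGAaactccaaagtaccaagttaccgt

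This stretch is 55 nt long, reaches 27 nt to either side of the site and, placed in this way, lies at chr16:700803-700857 and chr2:477876-477930 in the deposited numbering. It was placed by the study's own listing and not against a genome. Of its 17 uridines, the 16 other than the site had a median log2 ratio of +CMC to -CMC reads of 1.29 in natural RNA (1 read added to each count, mean of heat shock and both log-phase experiments), against 0.587 for the 38 other bases. With the sequence moved 1 nt to the 5′ side, the medians were 1.55 and 0.572, so the counts at the other bases do not settle the placement to within 1 nt.

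Most TEF reads could not be assigned to either gene. With the windows aligned at the listed site, 1169 of the 1537 positions with at least 10 reads in either gene had the same count in every one of the 16 libraries, which is 76.1% of positions (95% Wilson interval 73.9% to 78.1%, over positions and not over samples). The listed site and each position within 10 nt of it were among them. Moving TEF2 by up to 8 nt in either direction left 0 equal positions. Positions with equal counts carried 87.6% of the reads in the TEF1 window.

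**Figure D1:**
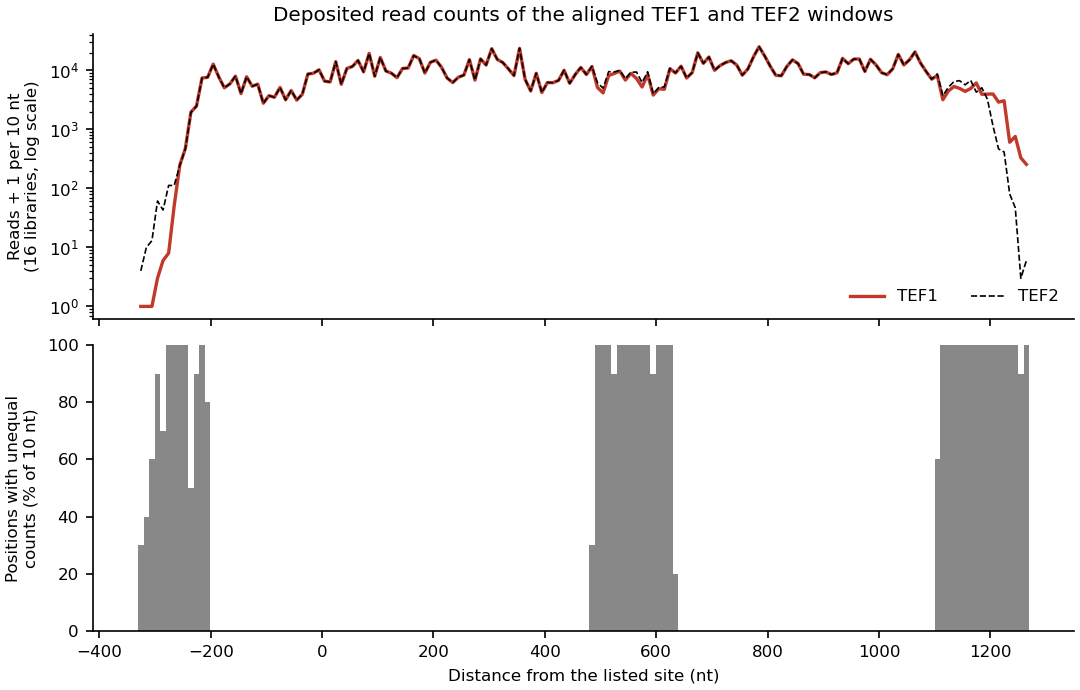
Reads of the aligned TEF1 and TEF2 windows summed over the 16 libraries in steps of 10 nt (top, log axis, 1 read added) and the share of positions whose counts differ between the genes (bottom), against the distance from the listed site in nt. Unequal counts fall in 3 stretches, and the lines of the genes lie on each other elsewhere.

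The counts of TEF1 and TEF2 differed in 3 stretches, from -298 to -203 nt, from 487 to 631 nt and from 1104 to 1268 nt relative to the site. Summed over all libraries, the stretch at the 5′ end held 19049 reads in TEF1 and 19280 in TEF2. The middle stretch held 99034 reads in TEF1 and 109364 in TEF2, and the stretch at the 3′ end held 57597 and 54235. The read-covered ends differed too. Reads of TEF1 began at -264 nt and those of TEF2 at -298 nt (first position with at least 10 reads in all libraries together). At the 3′ end, TEF2 reads ended 1244 nt after the site, whereas TEF1 reads went on to 1268 nt, next to the limit of the window, so TEF1 reads beyond it were not counted.

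At the positions with unequal counts, TEF1 took 54.2% of the reads of both genes in heat shock natural RNA without CMC (15287 of TEF1 and 12922 of TEF2, 95% Wilson interval 53.6% to 54.8%). In stationary phase it took 55.3% (53.3% to 57.4%), on 1232 reads of TEF1 and 995 of TEF2. In log phase it took 43.7% before heat shock (42.3% to 45.0%) and 50.2% before stationary phase (49.5% to 50.9%). Heat shock and stationary phase therefore lay above both log-phase libraries, with 1 library each and no test. The +CMC libraries of natural RNA had the same order, at 52.5% in heat shock, 57.2% in stationary phase, and 40.7% and 50.2% in log phase. The intervals cover counting error only, and reads at these positions can still match both genes. IVT RNA without CMC gave 47.7% in heat shock, 52.2% in stationary phase, and 47.7% and 47.0% in log phase, so its stationary-phase library was also the highest. In the pre-heat-shock IVT RNA the share was 36.6% with CMC and 47.7% without, the widest gap between a treated and a mock library.

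Of the 3 stretches, the 3′ one set the growth conditions furthest apart. There TEF1 had 62.2% of the natural -CMC reads in heat shock (61.1% to 63.2%) and 57.0% in stationary phase (54.4% to 59.5%), against 41.4% (38.5% to 44.4%) and 53.8% (52.1% to 55.6%) in the log-phase libraries. With CMC the shares in this stretch were 55.1% in heat shock and 60.5% in stationary phase, against 34.5% and 54.0% in log phase. In the 5′ stretch the same libraries ran from 49.1% to 60.7%, and the highest of these, stationary phase, rests on 17 and 11 reads.

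The growth conditions were compared by the share of all reads that lay in the TEF1 window. In natural RNA without CMC this share was 1.04% in heat shock, 0.139% in stationary phase, 0.56% in pre-heat-shock log phase and 1.34% in pre-stationary log phase. The log-phase libraries differed from each other by 2.39-fold, heat shock lay between them and stationary phase lay below both. With CMC the shares were 1.14%, 0.118%, 0.529% and 1.10% in the same conditions, and heat shock was then above both log-phase libraries. A share of reads cannot tell fewer TEF transcripts per cell from more of the other RNAs, and ribosomal DNA and repeated sequences took up more of the stationary-phase reads. The totals were also taken without ribosomal DNA and with positions of equal counts (at least 50 reads) counted once. On these reduced totals TEF1 made up 1.87% in heat shock and 0.487% in stationary phase, against 1.13% and 2.36% in log phase. Within its own culture, stationary phase had 0.104 times the share of log phase, or 0.207 times on the reduced totals. Heat shock had 1.86 times the share of log phase of its culture, or 1.65 times on the reduced totals. These ratios compare 1 library with 1 library.

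**Figure D2:**
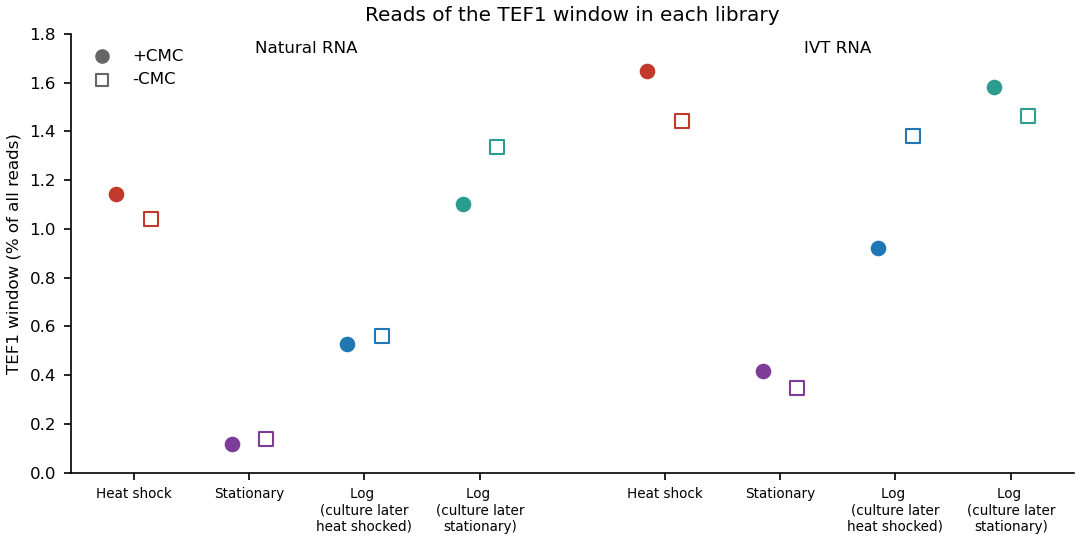
Reads in the TEF1 window as a percentage of all reads (linear axis from 0) in each of the 16 libraries, with natural RNA on the left, IVT RNA on the right, filled circles for +CMC and open squares for -CMC. Stationary phase has the lowest share in both RNAs, at 0.118% to 0.139% in natural RNA and 0.347% to 0.418% in IVT RNA.

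A fit over all 500-nt bins of the genome, in which each gene window was a feature of its own, took the spread from the log-phase pair and assumed the same for the single libraries. The fitted log2 difference of TEF1 was -1.70 in stationary phase relative to log phase (SE 0.76, adjusted p = 0.167, edgeR), where the median of all bins was -0.47, which leaves TEF1 at -1.23 relative to that median. TEF2 was at -1.76 (SE 0.75, adjusted p = 0.154). Scaled by library sizes alone, TEF1 was at -2.77 with an adjusted p of 0.0402 by the same edgeR test, but the median of all bins was then -1.52 and TEF1 was at -1.25 relative to it. For heat shock relative to log phase, TEF1 was at 0.14 (SE 0.69, adjusted p = 0.9999) and TEF2 at 0.09 (SE 0.69). Of 19393 bins tested, 0% were called in either comparison by edgeR under the first scaling (TMM). Under that scaling p was under 0.05 without adjustment at 78 bins for heat shock and 6440 for stationary phase. With library sizes alone, edgeR called many other bins in stationary phase besides the TEF windows. DESeq2 called 0 bins for heat shock and 1597 for stationary phase, the TEF windows not among them (adjusted p = 0.283 for TEF1). The size of the difference in stationary phase thus stood out from the log-phase spread only under a scaling that moved most of the genome with it.

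As a share of all reads without CMC, the TEF1 window was lower in natural than in IVT RNA of the same experiment in each of the 4 experiments. On the reduced totals this held in 3 of them, and in pre-stationary log phase the share was 2.36% in natural RNA and 2.29% in IVT RNA. Without CMC the TEF1 share averaged 0.769% ± 0.528 in natural RNA and 1.16% ± 0.542 in IVT RNA (SD, n = 4 each). An exact two-sided permutation test gave p = 0.286, where the smallest p that 4 against 4 libraries allow is 0.0286. It did not use the pairing by experiment. The lowest library of either RNA was the stationary one, at 0.139% in natural RNA and 0.347% in IVT RNA. In the fit over bins the log2 difference of TEF1 was -0.69 for natural relative to IVT RNA (SE 0.66, adjusted p = 0.887, edgeR), and that of TEF2 was -0.71 (SE 0.67, adjusted p = 0.881). Natural and IVT libraries of the same experiment deviated together from their group means in heat shock, stationary phase and pre-stationary log phase. In pre-heat-shock log phase they hardly did (correlation of 0.148), and some libraries of different experiments correlated at up to 0.639. With the experiment taken as a block, TEF1 had a log2 difference of -0.80 (SE 0.36, adjusted p = 0.176, edgeR) and 1448 bins were called. Without the block 8 bins were called, or 0.0426% of 18798, and neither TEF window was called with or without the block.

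Along the gene, stationary phase stood apart from the other experiments in both RNAs. In natural RNA without CMC, 17.7% of the window's reads lay before its middle in stationary phase, against 44.4% in heat shock, 46.6% in pre-heat-shock log phase and 49.4% in pre-stationary log phase. IVT RNA had 20.8% before the middle in stationary phase, against 52.7% in heat shock and 52.5% and 47.3% in log phase. The last of 4 equal parts of the window alone held 51.0% of the natural and 48.1% of the IVT reads of stationary phase, against 18.4% to 23.5% of natural and 20.4% to 22.5% of IVT reads in the other experiments. The listed site is in the first of these parts, which held 4.29% of natural and 5.34% of IVT reads of stationary phase. The 3′ excess in stationary phase was thus present in the natural RNA and in the RNA transcribed in vitro. Natural RNA averaged 39.5% ± 14.7 before the middle and IVT RNA 43.3% ± 15.2 (SD, n = 4 each). The difference was -3.80 percentage points, with an exact two-sided permutation p of 0.486. The test took the libraries as unpaired, so this p includes the spread between experiments that both RNAs share. Natural RNA was lower than IVT RNA in every experiment but pre-stationary log phase.

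**Figure D3:**
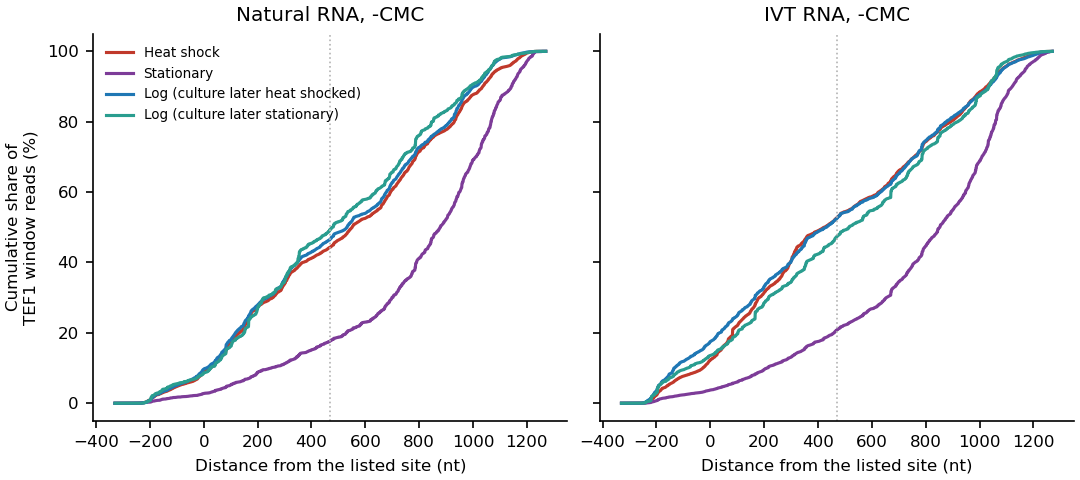
Cumulative share of the TEF1 window's reads in percent, against the distance from the listed site in nt, in the -CMC libraries of natural RNA (left) and IVT RNA (right), 1 line per experiment, with the middle of the window as a dotted line. The stationary line has reached 17.7% (natural) and 20.8% (IVT) at the middle, below all other lines, which stand at 44.4% to 52.7%.

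The listed site had the most one-sided counts of the gene in heat shock. Natural RNA had 816 reads there with CMC and 30 without in heat shock, 22 and 0 in stationary phase, 124 and 6 in pre-heat-shock log phase, and 265 and 10 in pre-stationary log phase. IVT RNA had 52 reads with CMC and 11 without in heat shock, 2 and 3 in stationary phase, 22 and 10 in pre-heat-shock log phase, and 50 and 8 in pre-stationary log phase. In natural RNA the +CMC count was thus well above the -CMC count in all 4 experiments, and in IVT RNA the difference was smaller or, in stationary phase, of the opposite sign. All 16 counts were the same at TEF1 and TEF2, so the site could not be assigned to either gene.

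Since +CMC and -CMC libraries differ in depth, the site was set against its whole window. In heat shock natural RNA, 96.5% of the site's reads came from the +CMC library (95% Wilson interval 94.98% to 97.5%), against 61.6% of the window's reads. In stationary phase it was 100% (85.1% to 100%) against 82.4%, on 22 reads in all. In log phase it was 95.4% (90.3% to 97.9%) against 55.6%, and 96.4% (93.4% to 98.01%) against 65.0%. In IVT RNA the site's share was 82.5% (71.4% to 90.0%) against 76.5% in heat shock, 40.0% (11.8% to 76.9%) against 45.2% in stationary phase, 68.8% (51.4% to 82.1%) against 51.8% in pre-heat-shock log phase, and 86.2% (75.1% to 92.8%) against 75.0% in pre-stationary log phase. The share of the window was inside the counting interval of the IVT site in 3 experiments, and in pre-stationary log phase it was just below the interval.

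The natural log2 ratio of +CMC to -CMC reads at the site was 4.72 in heat shock, 4.52 in stationary phase, 4.16 in pre-heat-shock log phase and 4.596 in pre-stationary log phase. The median ratios of the window were 0.64, 2.14, 0.32 and 1.17 in the same experiments, over positions with at least 10 reads in the pair of libraries. The site ranked 1 of 1462 positions in heat shock, 6 of 770 in stationary phase, 2 of 1178 in pre-heat-shock log phase and 11 of 1413 in pre-stationary log phase. In IVT RNA its rank was 317 of 1497, 365 of 1447 and 325 of 1475 in heat shock and the log-phase experiments, and in stationary phase its 5 reads were below the minimum for a rank. Ahead of the site in stationary phase was, first of all, the position 167 nt after it (160 reads with CMC and 3 without), where pre-stationary log phase had 1697 and 1794 reads. With 10 reads added to each count, so that low counts weigh less, the site ranked first in heat shock and in both log-phase experiments but 154 in stationary phase.

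**Figure D4:**
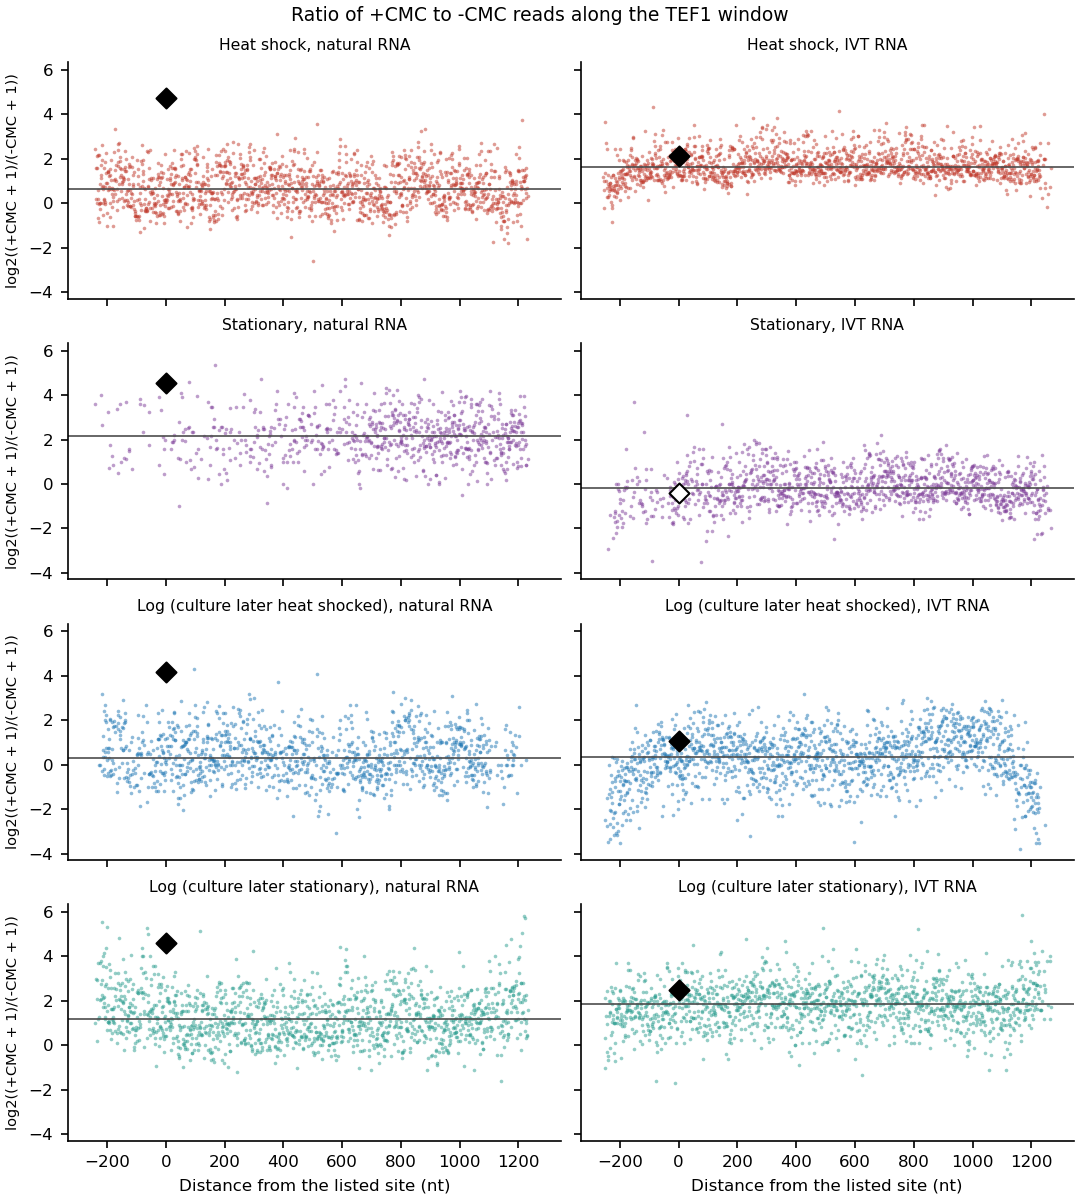
Log2 ratio of +CMC to -CMC reads, 1 read added to each count, against the distance from the listed site in nt, in natural RNA (left) and IVT RNA (right) of the 4 experiments, 1 point per position with at least 10 reads in the pair. The diamond is the listed site, open where it has fewer reads, and the line is the median; in natural RNA the site is at 4.16 to 4.72, and in IVT RNA it is at -0.42 to 2.50.

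Among all positions of the genome with at least 10 natural reads in the pair, counted once where counts are equal, 57 of 212996 had a higher ratio than the TEF site in heat shock, or 0.0268%. The share was 1.13% in stationary phase, 0.169% in pre-heat-shock log phase and 0.823% in pre-stationary log phase. The site thus stood nearest the top of the genome in heat shock, where TEF had the most natural reads, and furthest from it in stationary phase. In stationary phase the site had 22 reads with CMC and 0 without, so its ratio was capped by its depth. The median ratio of all these positions was also higher there, at 2.32 against 0.585 in heat shock.

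The signal was narrow. Within 10 nt on either side, the highest natural ratio was 2.21 in heat shock, 1 nt before the site, 2.59 in stationary phase, 7 nt after it, 1.93 in pre-heat-shock log phase, also 7 nt after it, and 2.66 in pre-stationary log phase, 5 nt after it. The position 1 nt before the site is a uridine in the sequence shown above, within the same hexamer. It had 96 reads with CMC and 20 without in heat shock natural RNA, 11 and 2 in stationary phase, 17 and 7 in pre-heat-shock log phase, and 265 and 46 in pre-stationary log phase. Its natural log2 ratios were 2.21, 2.00, 1.17 and 2.50, and its IVT log2 ratios were 2.92, -1.42, -1.63 and 3.49 in the same experiments. As raw ratios these were higher in IVT than in natural RNA in heat shock and pre-stationary log phase, and lower in stationary and pre-heat-shock log phase. Raw ratios carry the depth of each library pair. The window medians were 0.64, 2.14, 0.32 and 1.17 in natural RNA and 1.64, -0.19, 0.35 and 1.87 in IVT RNA. Relative to these medians the order was reversed in heat shock, where this neighbour was further above the median in natural RNA. The position 1 nt after the site had natural ratios of 0.20, 1.00, 0.19 and 0.75, each below the median of its window in that experiment.

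**Figure D5:**
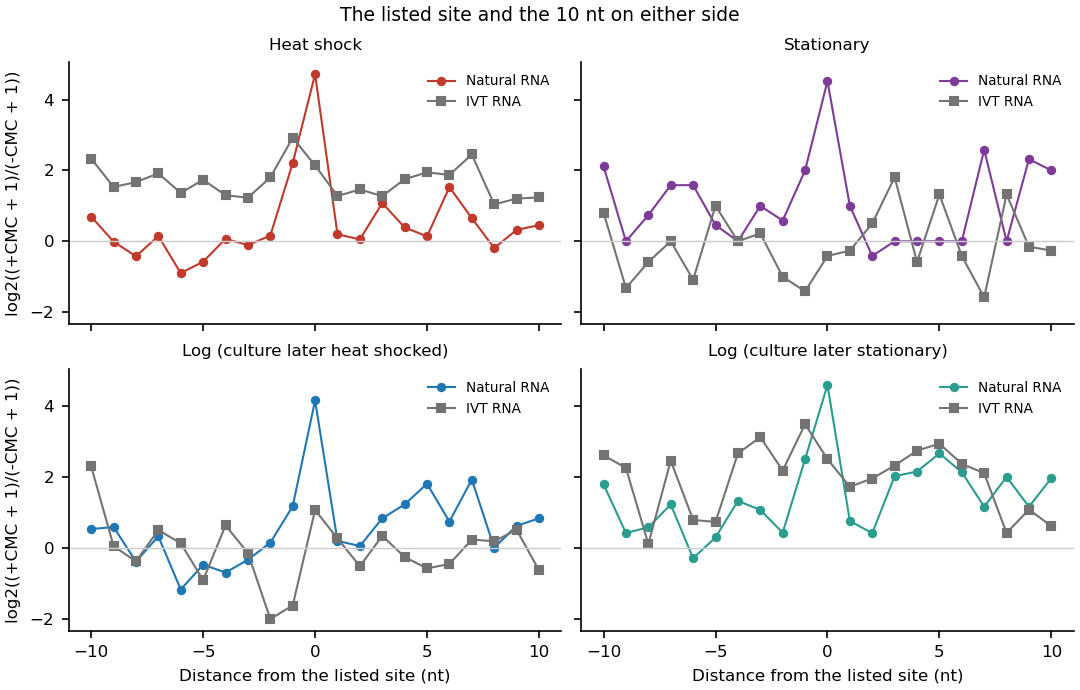
Log2 ratio of +CMC to -CMC reads, 1 read added to each count, at the listed site and at each position within 10 nt (distance in nt), in natural RNA (circles) and IVT RNA (squares) of each experiment. The natural peak is 1 nt wide, and the highest neighbour reaches 1.93 to 2.66.

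As a share of the reads within 25 nt on either side, the site took 15.01% of natural +CMC reads in heat shock (95% Wilson interval 14.1% to 15.98%), 9.91% in stationary phase (6.64% to 14.6%), 11.8% in pre-heat-shock log phase (9.96% to 13.9%) and 5.05% in pre-stationary log phase (4.49% to 5.68%). Without CMC it took 0.871% in heat shock, 0.844% in pre-heat-shock log phase and 0.426% in pre-stationary log phase. In stationary phase it had 0 of 53 reads, which allows a share of up to 5.66%. Heat shock was above both log-phase libraries and stationary phase lay between them. The log-phase libraries themselves differed by more than their counting intervals, and with 1 library each the difference of heat shock was not tested. IVT RNA had 0.529% to 1.34% with CMC and 0.372% to 0.665% without. In natural +CMC RNA the site was the highest position of this stretch in 3 experiments, and in pre-stationary log phase 4 positions were higher, the first of them 22 nt after the site.

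A fit of single positions took heat shock and both log-phase experiments as replicates, with each RNA of each experiment as a block, over 467058 positions with at least 10 natural reads. These 3 experiments come from 2 cultures, so the p-values can be too small. In natural RNA, 1 of the 1753 TEF positions tested was higher with CMC and 0 were lower at an adjusted p under 0.05, where 0.012% of all positions were higher and 0.00428% lower. That position was the listed site, with a log2 difference of 4.03 between +CMC and -CMC libraries (SE 0.66, adjusted p = 1.27e-05, edgeR). Since the study picked the site on these libraries, this call is no independent evidence for it. It was lost without heat shock (log2 difference 3.82, adjusted p = 0.9998, edgeR) and without the blocks (4.08, adjusted p = 0.407). Without adjustment, p was under 0.05 at 188 TEF positions that were higher with CMC and 32 that were lower. Among all 467058 positions these numbers were 19570 and 3654. DESeq2 called 25 and 12 TEF positions, against 418 and 635 of the 32409 positions for which it gave an adjusted p. The median over the TEF positions was 0.19, against 0.32 over all positions.

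In IVT RNA, 0 of the 1753 TEF positions were called by edgeR in either direction, where 0.091% of all positions were higher with CMC and 0% lower. Without adjustment, p was under 0.05 at 160 TEF positions that were higher and 8 that were lower. Among all 467058 positions these numbers were 16685 and 2383. DESeq2 called 1 TEF position that was higher and 5 that were lower, against 451 and 43 of 23353 positions with an adjusted p. The listed site was at 1.21 there (SE 0.63, adjusted p = 1.00, edgeR). The smallest p belonged to the position 786 nt after the site, with a log2 difference of 2.25 (SE 0.70, adjusted p = 0.353). The difference between natural and IVT RNA in the effect of CMC was 2.82 at the site (SE 0.89, adjusted p = 0.986, edgeR), positive in each of the 3 experiments. No TEF position was called for this difference by edgeR, where 0.00214% of all positions were called higher in natural RNA and 0.0116% higher in IVT RNA. Without adjustment, p was under 0.05 at 21 and 47 TEF positions in those directions, against 4982 and 7779 of all 467058 positions. The site had the smallest p of all TEF positions in this contrast by edgeR. DESeq2 called it alone among TEF positions (log2 difference 2.91, adjusted p = 0.0490). Of 23353 positions with an adjusted p, DESeq2 called 10 higher in natural RNA and 32 higher in IVT RNA. The study also chose the site by its excess over IVT RNA in these libraries. Its place in this contrast is therefore no independent evidence for it.

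By the mean natural log2 ratio over heat shock and both log-phase experiments, the site was first of the 1170 positions with at least 10 natural reads in each of them, at 4.49 ± 0.30 (SD, n = 3), where the median position was at 0.70. Its IVT mean was 1.90 ± 0.75. Position -216 came next at 3.78 ± 1.56, with ratios of 2.62 in heat shock, 3.17 in pre-heat-shock log phase and 5.55 in pre-stationary log phase. It had 116 reads with CMC and 18 without in heat shock natural RNA, 0 and 2 in stationary phase, 26 and 2 in pre-heat-shock log phase, and 140 and 2 in pre-stationary log phase. Its ratio was highest in the pre-stationary experiment, and it was among the 10 highest positions of both log-phase experiments. Its 0 and 2 reads in stationary phase were under the minimum of 10 reads, so it could not be judged there.

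The other 8 of the 10 highest positions lay at -210, -204, -80, -63, 247, 513, 514 and 997 nt, with means of 2.69 to 3.19. Their spread over the 3 experiments was 1.07 to 1.82 (SD), except at 247 nt after the site, where it was 0.32. That position was at 2.76, with 2.65 in heat shock, 2.51 in pre-heat-shock log phase, 3.12 in pre-stationary log phase and 2.81 in stationary phase, the last on 6 reads with CMC and 0 without. Its IVT ratios were 2.88 in heat shock, 0.62 in stationary phase, and -0.20 and 2.85 in log phase. Of these 8 stops it therefore varied least in natural RNA, while in IVT RNA it ranged from below 0 to its natural level. When each experiment was ranked over these 1170 positions alone, the listed site was the 1 position among the 10 highest of all 3.

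The highest position beside the site in heat shock natural RNA was 1212 nt after it, near the 3′ end of the reads, with 53 reads with CMC and 3 without. In TEF1 it had 24 and 3 reads in stationary phase, 5 and 0 in pre-heat-shock log phase, and 32 and 0 in pre-stationary log phase. This position lies where the genes differ, and TEF2 had 0 natural reads there in all 8 natural libraries. Its natural reads were therefore listed for TEF1 alone, and the study also named it as a candidate. In IVT RNA, TEF1 had 86 reads with CMC and 14 without in heat shock, 16 and 23 in stationary phase, 7 and 13 in pre-heat-shock log phase, and 34 and 5 in pre-stationary log phase. Its log2 ratios of 3.75, 2.64, 2.58 and 5.04 in natural RNA stood against 2.54, -0.50, -0.81 and 2.54 in IVT RNA of the same experiments, and too few reads were counted in pre-heat-shock log phase for it to enter the ranking of means. The same held for the highest position of pre-stationary log phase, 1218 nt after the site, which TEF2 also listed at 0 in the natural libraries. In TEF1 that position had 27 natural reads with CMC and 9 without in heat shock, 30 and 1 in stationary phase, 5 and 2 in pre-heat-shock log phase, and 55 and 0 in pre-stationary log phase. It was thus one-sided in the culture taken to stationary phase and less so in the heat-shocked one.

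The 5 highest means in IVT RNA were at 297, 759, 786, 815 and 846 nt after the site, at 2.84 to 3.01, over 1435 positions whose median was 1.27. None of these 5 was among the 10 highest positions of natural RNA, where they had means of 0.07 to 2.34. The position 759 nt after the site had IVT ratios of 2.61 in heat shock, 1.02 in stationary phase, and 2.77 and 3.15 in log phase, and natural ratios of -0.47, 1.32, -0.19 and 0.87 in the same experiments. By raw ratio, IVT RNA was thus higher there in 3 of the 4 experiments. In stationary phase the window median was 2.14 in natural RNA and -0.19 in IVT RNA. The position was below the natural median and above the IVT median, but its natural ratio there rests on 4 reads with CMC and 1 without. That is under the minimum of 10 reads used for the median.

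Across TEF positions, log2 ratios of natural RNA correlated at Pearson's r = 0.685 between heat shock and the log phase of the same culture (1178 positions), 0.408 between heat shock and pre-stationary log phase (1412 positions) and 0.468 between the log-phase experiments (1170 positions). Natural and IVT RNA of 1 experiment correlated at 0.472 in heat shock, 0.0656 in stationary phase, 0.139 in pre-heat-shock log phase and 0.245 in pre-stationary log phase. These are descriptions over positions, which are not replicates and share their library and their depth. In natural RNA, stationary phase correlated at 0.296 with heat shock (770 positions), 0.282 with pre-heat-shock log phase (674 positions) and 0.2 with the log phase of its own culture (762 positions). Of the natural pairs, the highest and the lowest value thus both came from experiments of 1 culture.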

How the data were processed

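PSI-seq libraries of natural and IVT RNA from BY4741 were analysed in 4 experiments, 16 libraries in all. The authors aligned reads with Bowtie (version 0.12.5 and build sacCer3 in the submitters' processing notes), allowing at most 2 mismatches, and deposited raw counts of reads per position, without normalization, strand or base. The methods describe random assignment of reads with several matches, but the deposited counts at most TEF1 and TEF2 positions are equal. The columns do not number the log-phase replicates, so these are named by culture.

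TEF1 was taken as positions 700500 to 702100 of chromosome 16 and TEF2 as 477570 to 479170 of chromosome 2, with the listed site at 700830 and 477903. The genes are 222927 nt apart in these counts, which is 4 nt more than between the coding starts in RefSeq R64, so no R64 coordinates were used. The middle of the coding sequence, other matches to the hexamer and other elongation factor genes could therefore not be placed. The members, positions and lists were chosen with earlier results of these data known. Named positions were the site and its neighbours within 5 nt, the 10 highest mean natural and 5 highest mean IVT log2 ratios, and the TEF positions called or, where none or more than 10 were, those with the smallest p. The positions 167, 1212 and 1218 nt after the site were named after their values were seen.

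Counts were fitted with edgeR 4.0.16 (quasi-likelihood, TMM, Benjamini-Hochberg over the whole table) in bins of 500 nt with at least 10 reads on average, and at single positions with 10 natural reads, taking positions of equal counts (at least 50 reads) once. DESeq2 1.42.0 was an alternative. Position fits used 6 blocks of experiment and RNA, because each RNA was divided between a +CMC and a -CMC reaction. Natural and IVT deviations from the group means correlated at 0.668, 0.863, 0.148 and 0.549 within heat shock, stationary phase, pre-heat-shock and pre-stationary log phase. Between experiments they correlated at -0.771 to 0.639, below 0 in every pair that held stationary phase. Log2 ratios had 1 read added to each count. Intervals are 95% Wilson intervals. PCR reads carry no molecular identifiers, so intervals and limits for 0 reads (3 counts) cover counting error only. The fits were tested on simulated data. Nothing says that IVT libraries came from separate reactions, so p-values measure the spread between these libraries.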

Additional observations from a re-analysis of the deposited data

Results flagged for a closer look

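Stationary phase stood far from the other 3 experiments in the share of TEF1 window reads before the middle, at 15.9% in natural +CMC, 17.7% in natural -CMC and 20.8% in IVT -CMC libraries. Its IVT -CMC library was also apart in the TEF1 share of all reads, at 0.347%, and in the TEF1 share of reads at unequal positions, at 52.2%. These 5 values were found among 14 sets of 4 libraries, each with the 4 growth samples as members. Chance gives such a value in about 1 of 20 sets if the sets are independent and their members alike. These sets share libraries and their members differ in growth condition, so the 5 values cannot be counted against that rate. As each growth condition has 1 library per set, the condition and the library cannot be told apart.

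The listed site had 22 natural +CMC reads and 0 natural -CMC reads in stationary phase, an experiment that the fit of single positions left out, and 2 and 3 reads in the IVT libraries of the same phase.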

How the results depend on the processing

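The share of positions with equal counts was 78.4% with at least 50 reads. The rank of the site by the natural minus the IVT log2 ratio was 2 in heat shock, 23 in pre-heat-shock and 41 in pre-stationary log phase, and with 10 reads added it was 1 in each log-phase experiment and 154 in stationary phase. With at least 50 reads it was 1 in pre-heat-shock and 7 in pre-stationary log phase, and stationary phase had too few reads at the site for this and for the difference to IVT. Taking +CMC libraries turned the difference in reads before the middle to 0.31 percentage points, and leaving out each experiment gave -5.76 to -2.30. Bins called between natural and IVT RNA numbered 531 with DESeq2, 1448 with the replicate block, 0 without a filter on low counts, 0 in +CMC libraries, and 0 to 1384 leaving out each experiment, the highest without stationary phase. TEF1 was called in none of these, at log2 differences of -0.94 to -0.52 leaving out each experiment. In stationary phase relative to log phase, library sizes alone gave TEF1 -2.77 and TEF2 -2.84 and 3722 called bins, DESeq2 1597 bins and +CMC libraries 4940 bins, and against its own culture TEF1 was at -3.27. In natural RNA, TEF positions called numbered 37 with DESeq2 and 0 with no replicate block. Leaving out each experiment gave 0 to 13, with 0 without heat shock and 13 without pre-heat-shock log phase. In that last fit, 301 of all 392322 positions were called higher and 183 lower. The site was at 4.08 with no replicate block, no longer past the threshold, and at 3.82 to 4.10 leaving out each experiment. DESeq2 called 6 TEF positions in IVT RNA and 1 in the difference of natural and IVT RNA, the site at 2.91. The causes were not tested. For the TEF windows and TEF positions, the replicate block changed no other call by edgeR. It did change the numbers called over the whole table. In IVT RNA, 425 of all positions were called higher with CMC with the block and 918 without it. The middle of the coding sequence was not run, as no annotation of the files' numbering was used. Stationary phase had 222 natural +CMC reads within 25 nt of the site, against 1054 to 5438 in the other experiments, which limits what its site can show.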
